A study of Mus musculus with 8 samples.

Results

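The retinoid signalling genes described here are 9 of the 18193 genes named on the array: the nuclear receptors Rara, Rarb, Rxra, Rxrb and Rxrg, the vitamin A carrier Rbp4, the retinoic acid binding protein Crabp1, and the enzymes Aldh1a1 and Cyp26b1. They were chosen by name, and every probe set that the platform annotation gives to them was kept, which made 11 probe sets, 3 of them for Rxra and 1 for each other gene. Transcripts were measured in striatal tissue from 4 R6/2 and 4 wild-type animals, on 1 Affymetrix array each. All 8 mice were labelled as females aged 12 weeks (85 days) on a C57Bl/6 / CBA background. The R6/2 mice carry a transgene with the first exon of human huntingtin and an expanded CAG repeat, driven by the human huntingtin promoter, and serve to model Huntington's disease. No treatment is given in the labels. Mice 42, 48, 54 and 63 were wild-type, and mice 64, 65, 70 and 78 R6/2. Each p-value rests on the spread among these animals, which the main limma fit moderates with the spread of all probe sets.

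Retinoic acid is the active form of vitamin A. RBP4, bound to transthyretin, carries retinol in blood, retinol dehydrogenases turn it into retinaldehyde, and ALDH1A enzymes oxidise this to retinoic acid, which CRABP proteins bind and CYP26 enzymes degrade. The acid binds retinoic acid receptors (RAR), which pair with retinoid X receptors (RXR) on DNA and regulate genes near direct repeats of a short half-site. In the striatum, medium spiny neurons express Rarb and Rxrg, and mice that lack certain pairs of RAR and RXR genes move less and have fewer dopamine receptors there.

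The repeat that RAR and RXR bind can be read in the promoter of Rarb itself, a known target of its own protein. Promoter windows of 250 bases before to 50 bases after an annotated start came from RefSeq, build GRCm38.p6, and held all 9 genes in 17 windows. They were searched on both strands for direct repeats of any of the half-sites AGGTCA, its variant AGTTCA, the variant GGGTCA and the variant GGTTCA with a spacer of 1, 2 or 5 bases. The window of Rarb, chr14:16575427-16575726 on the minus strand, is shown because it was the only window of the 9 genes with such a repeat. The window of Cyp26a1, the other CYP26 gene measured, chr19:37697558-37697857 on the plus strand, is shown because it holds the same kind of repeat in the opposite orientation. That of Rxrb, chr17:34031562-34031861 on the plus strand, is the window of another receptor gene that was lower in R6/2 mice and holds none, nor any single half-site. Capitals mark the repeat, and each sequence runs 5′ to 3′ in the direction of transcription.
Rarb: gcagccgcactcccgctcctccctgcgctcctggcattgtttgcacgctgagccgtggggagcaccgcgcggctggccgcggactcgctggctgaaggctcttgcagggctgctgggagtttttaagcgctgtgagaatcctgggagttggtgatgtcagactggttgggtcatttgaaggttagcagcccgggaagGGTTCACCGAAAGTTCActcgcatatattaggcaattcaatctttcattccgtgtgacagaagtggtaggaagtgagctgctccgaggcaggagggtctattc
Cyp26a1: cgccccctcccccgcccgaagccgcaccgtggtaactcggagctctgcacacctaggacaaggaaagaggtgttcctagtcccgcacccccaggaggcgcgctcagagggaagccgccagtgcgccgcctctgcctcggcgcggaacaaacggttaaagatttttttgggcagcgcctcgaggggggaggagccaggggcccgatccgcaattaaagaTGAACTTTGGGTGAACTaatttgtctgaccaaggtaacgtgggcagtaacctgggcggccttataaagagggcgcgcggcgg
Rxrb: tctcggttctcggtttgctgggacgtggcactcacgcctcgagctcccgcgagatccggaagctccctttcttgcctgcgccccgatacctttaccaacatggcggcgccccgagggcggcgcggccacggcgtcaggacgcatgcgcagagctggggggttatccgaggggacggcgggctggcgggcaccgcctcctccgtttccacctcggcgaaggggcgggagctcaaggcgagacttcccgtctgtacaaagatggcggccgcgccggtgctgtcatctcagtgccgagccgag
The repeat of Rarb, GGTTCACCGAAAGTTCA, begins 53 bases before the start, and that of Cyp26a1 reads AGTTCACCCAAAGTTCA on the other strand. Both have a spacer of 5 bases. Among all 32851 windows of this length, 0.0974% held a repeat with that spacer, 0.222% one with a spacer of 1 base and 0.268% one with a spacer of 2 bases. A match describes these letters and does not show that a receptor was bound.

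Values were log2 intensities. The 8 array medians ran from 5.08 to 5.13 and pairs of arrays correlated at 0.983 to 0.994. Precision is limited by the number of arrays. Marker signal of tissue next to the striatum differed between mice, and whether dissection or genotype set it was not tested. The choroid plexus score, the mean over 13 marker genes of the log2 value minus the wild-type mean, spanned -1.11 to 1.22 in the wild-type and -1.20 to 1.79 in the R6/2 mice. The cortical projection neuron score, over 13 genes, ran from -0.48 to 0.27 and from -1.08 to -0.12. The summed linear signal of the same cortical genes spanned 3785 to 4721 in the wild-type and 2822 to 3849 in the R6/2 mice. Lamp5 and Mef2c, the brightest of them with wild-type means of 10.30 and 10.20, weigh most in this sum. They spanned 10.12 to 10.43 and 10.07 to 10.31 in wild-type mice, where Slc17a7 of the same list spanned 5.80 to 8.66. The sum therefore says little about the dimmer cortical genes. Choroid plexus signal summed to between 4916 and 21333 in wild-type and between 5425 and 22917 in R6/2 mice. Medium spiny neuron markers were present on all arrays, and 11 of 12 measured were lower in R6/2 mice with a median log2 difference of -0.94. Of the other marker lists, 2 of 10 astrocyte, 1 of 7 oligodendrocyte, 0 of 8 microglial and 4 of 8 endothelial genes were lower and none was higher. In whole tissue, fewer cells of a type and less RNA per cell cannot be told apart.

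Among the retinoid receptors, transcripts of Rarb and Rxrb were lower in R6/2 striatum, by 1.42-fold and 1.23-fold. Rarb encodes the retinoic acid receptor most abundant in striatal neurons and Rxrb a broadly expressed partner receptor. The levels of both lay apart in the 2 genotypes, but each call was close to the threshold. Of the 11 probe sets 2 were called lower and 0 higher in limma at an adjusted p under 0.05, where 10.1% of all 45037 probe sets were called, 4.59% lower and 5.54% higher. An unadjusted limma p under 0.05 was reached by 4 of the 11, among them Rxrg and Rbp4, which were not called. The median log2 difference of the 11 was -0.15, against -0.017 over all probe sets, and 7 of them were below 0. The shares of all probe sets with such a p or below 0 were not counted, so neither count is read as an excess. The levels of the genotypes lay apart without overlap for 2 of the 11, against 16.1% of all probe sets.

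**Figure D1:**
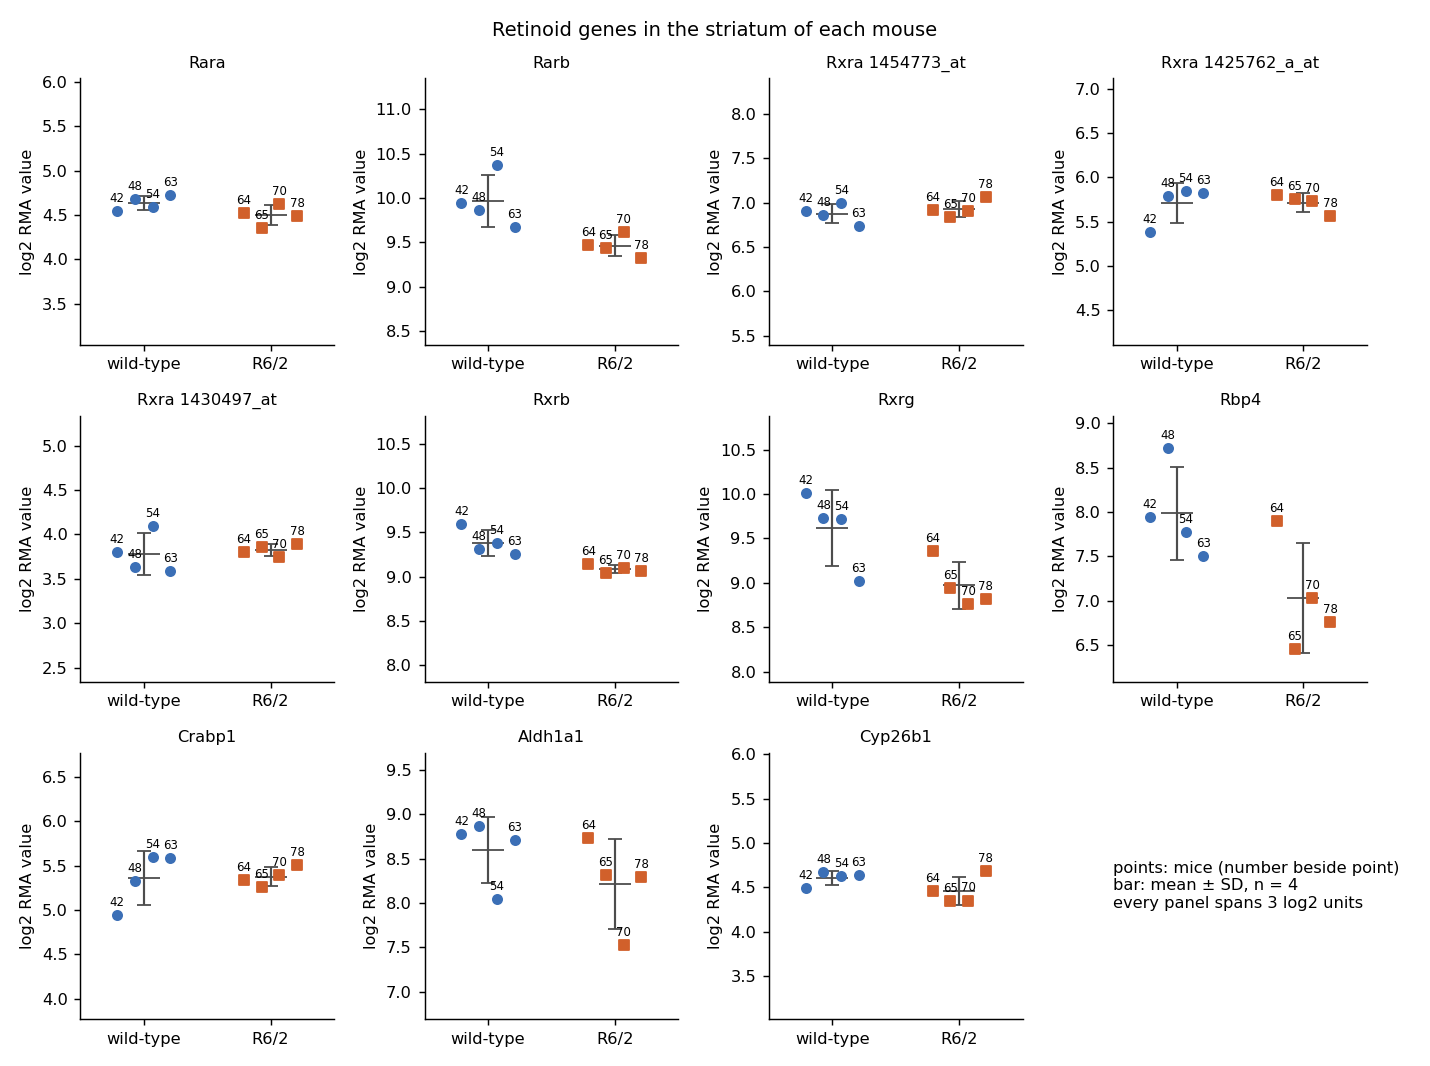
Log2 RMA values of the 11 probe sets in each mouse, 1 panel per probe set, with the mouse number beside each point and the mean ± SD of 4 mice per genotype as a bar. All panels span the same number of log2 units; the genotypes lie apart for Rarb and Rxrb, and Rbp4 and Aldh1a1 vary most between mice.

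The Rarb level was 9.95, 9.86, 10.37 and 9.67 in wild-type mice 42, 48, 54 and 63. In R6/2 mice 64, 65, 70 and 78 it was 9.47, 9.44, 9.61 and 9.32. Every R6/2 mouse lay below every wild-type mouse, with only a narrow gap between wild-type mouse 63 and R6/2 mouse 70. The means were 9.96 ± 0.29 and 9.46 ± 0.12 (SD, n = 4 each), and the log2 difference was -0.50 ± 0.14 (SE, limma adjusted p = 0.0435, 95% interval -0.81 to -0.20). The call was lost without any 1 of 7 arrays, with limma adjusted p from 0.0564 (without wild-type mouse 54, log2 difference -0.37) to 0.110 (without R6/2 mouse 78). Without wild-type mouse 63 it was kept (limma adjusted p = 0.0224).

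Rara, which encodes the more widely expressed retinoic acid receptor, was dim. The highest value of any of 13 Y-linked probe sets in these female mice was 5.37, on an Sry probe set, and 11 of the 13 stayed at or under 3.71. Rara lay below the higher mark on every array, 4.55 to 4.73 in the wild-type and 4.35 to 4.63 in the R6/2 mice. The log2 difference was -0.14 ± 0.081 (SE, limma adjusted p = 0.327), with a 95% interval from -0.32 to 0.041. RMA compresses differences between dim values. Rarb minus Rara, taken within each array, was 5.33 ± 0.36 in wild-type and 4.96 ± 0.10 in R6/2 mice (SD, n = 4 each). The exact 2-sided permutation p was 0.114 (0.133 adjusted over 7 such comparisons). With Rara under the mark on all arrays, this does not test whether the receptors changed unequally.

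The 3 RXR genes encode the shared partners of RAR and of several other nuclear receptors. The Rxrb level was 9.59, 9.32, 9.37 and 9.26 in wild-type mice 42, 48, 54 and 63, and 9.14, 9.04, 9.10 and 9.06 in R6/2 mice 64, 65, 70 and 78. The R6/2 mice formed a narrow group below all wild-type mice. The log2 difference was -0.30 ± 0.084 (SE, limma adjusted p = 0.0499, 95% interval -0.49 to -0.11). Without 1 array, only the fit without wild-type mouse 63 kept the call (limma adjusted p = 0.0391), and the other 7 gave 0.0726 to 0.110. Centring each array on its median also ended it (limma adjusted p = 0.0774).

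For Rxrg, the retinoid X receptor of striatal neurons, the wild-type levels were 10.01, 9.74, 9.71 and 9.02 in mice 42, 48, 54 and 63. Its R6/2 levels were 9.36, 8.94, 8.76 and 8.82 in mice 64, 65, 70 and 78. Wild-type mouse 63 lay within the R6/2 range and R6/2 mouse 64 above it, so the groups overlapped. The log2 difference of -0.65 ± 0.20 did not pass (SE, limma adjusted p = 0.0703), and its 95% interval ran from -1.10 to -0.20. It passed without wild-type mouse 63 (log2 difference -0.85, limma adjusted p = 0.00954) and with array weights (limma adjusted p = 0.0290). Its point estimate was the lowest of the receptors' here, but Rxrg minus Rxrb within each array did not separate the genotypes (0.23 ± 0.32 against -0.11 ± 0.24, SD, n = 4 each, exact permutation p = 0.114, adjusted 0.133).

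Rxra was measured by 3 probe sets, and none passed. The brightest, 1454773_at, lay between 6.74 and 7.0 in wild-type and between 6.84 and 7.06 in R6/2 mice, a log2 difference of 0.054 ± 0.082 (SE, limma adjusted p = 0.741). Its 95% interval of -0.13 to 0.24 does not reach the point estimates of Rxrb or Rxrg. The other probe sets differed by 0.0033 ± 0.11 (1425762_a_at, limma adjusted p = 0.991) and 0.043 ± 0.11 (1430497_at, limma adjusted p = 0.855), and 1430497_at lay under the mark of 5.37 on all arrays. Within arrays, Rxrb minus the brightest Rxra probe set was 2.51 ± 0.13 in wild-type and 2.16 ± 0.10 in R6/2 mice, and the groups did not overlap (SD, n = 4 each). Its exact 2-sided permutation p of 0.0286 is the smallest that 70 arrangements allow, and was 0.0667 adjusted over the 7 comparisons. An adjusted p under 0.05 would have needed most of the 7 to reach that smallest value. Rxrg minus Rxra was 2.74 ± 0.35 and 2.04 ± 0.30 (exact permutation p = 0.0571, adjusted 0.10).

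**Figure D2:**
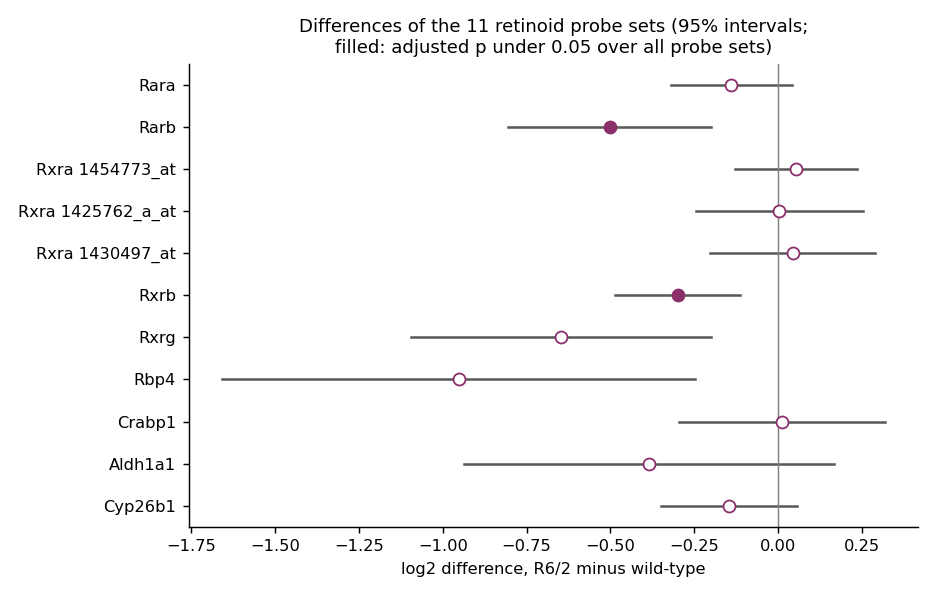
Log2 difference, R6/2 minus wild-type, of each of the 11 probe sets with its 95% interval from limma; filled points passed an adjusted p of 0.05 over all probe sets. The intervals of Rarb, Rxrb, Rxrg and Rbp4 lie below 0, and only Rarb and Rxrb passed after adjustment.

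The receptors were also set against the medium spiny neuron markers of the same arrays. Rarb relative to the medium spiny neuron score, each counted from its wild-type mean, spanned -0.18 to 0.29 in the wild-type and 0.31 to 0.65 in the R6/2 mice. The exact permutation p was 0.0286, and 0.0667 adjusted over the 7 comparisons. For Rxrb the same quantity ran from -0.15 to 0.17 and from 0.63 to 0.71, with the same exact permutation p. That p is the smallest possible here, and could pass adjustment only if most of the 7 comparisons reached it. R6/2 mice lay above wild-type mice for both receptors with no overlap, and neither comparison passed 0.05 after adjustment. For Rxrg they overlapped, at -0.37 to 0.36 against 0.15 to 0.69 (exact permutation p = 0.171). The score itself spanned -0.23 to 0.12 in the wild-type and -1.0 to -0.95 in the R6/2 mice. Its marker list was chosen with earlier results of these data known. A transcript that did not change, or fell less than the score, would therefore lie higher in R6/2 mice by this quantity. The separation for Rarb and Rxrb only describes a smaller fall than that of the score on these arrays. Because of how the list was chosen, it tests nothing further, and no conclusion is drawn from it.

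Of the genes that carry, make and degrade retinoic acid, none of the 4 members was called, and the estimate farthest from 0 was that of Rbp4, the retinol carrier. The Rbp4 level was 7.95, 8.72, 7.78 and 7.5 in wild-type mice 42, 48, 54 and 63, and 7.90, 6.45, 7.03 and 6.76 in R6/2 mice 64, 65, 70 and 78. R6/2 mouse 64 lay within the wild-type range, and the other R6/2 mice lay below all wild-type mice. The log2 difference was -0.95 ± 0.32 (SE, limma adjusted p = 0.0886, 95% interval -1.66 to -0.25). Without R6/2 mouse 64 it passed, at -1.24 (limma adjusted p = 0.0267).

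Rbp4 is also expressed by layer 5 neurons of the cortex, and its level followed the order of the cortical score among the R6/2 mice. That score was -0.12 in mouse 64, -0.53 in mouse 70, -0.91 in mouse 78 and -1.08 in mouse 65, and Rbp4 was 7.90, 7.03, 6.76 and 6.45 in the same mice. Rxrb had that order too, at 9.14, 9.10, 9.06 and 9.04. Among wild-type mice the orders differed, since mouse 54 with the lowest cortical score of -0.48 was above mouse 63 in Rbp4. Of 13 cortical genes 2 were called lower, and the cortical glutamate transporter gene Slc17a7 spanned 5.8 to 8.66 in the wild-type and 5.08 to 7.64 in the R6/2 mice. Adjusted for the cortical score, the Rbp4 difference was -0.33 (limma adjusted p = 0.734) and that of Rarb -0.64 (limma adjusted p = 0.115). The differences of Rxrb and Rxrg were -0.23 (limma adjusted p = 0.370) and -0.50 (limma adjusted p = 0.432). With the choroid plexus score in its place these were -0.71 for Rbp4, -0.43 for Rarb, -0.27 for Rxrb and -0.47 for Rxrg, and none passed (limma adjusted p from 0.0879 for Rarb to 0.153 for Rbp4). All 4 R6/2 mice had cortical scores below 0, as did wild-type mouse 54. Since this score differs with genotype, adjusting for it can also take away part of a genotype difference. Whether cortical tissue set the level of Rbp4 or of the receptors was not tested. Among wild-type mice, Rarb was highest in mouse 54, which had the lowest choroid plexus score of -1.11, and lowest in mouse 63, which had the highest of 1.22. The R6/2 mice did not share this order. Their highest Rarb level, 9.61, was in mouse 70 with a choroid plexus score of 1.45. Mouse 64, with their lowest score of -1.20, had a Rarb level of 9.47.

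**Figure D3:**
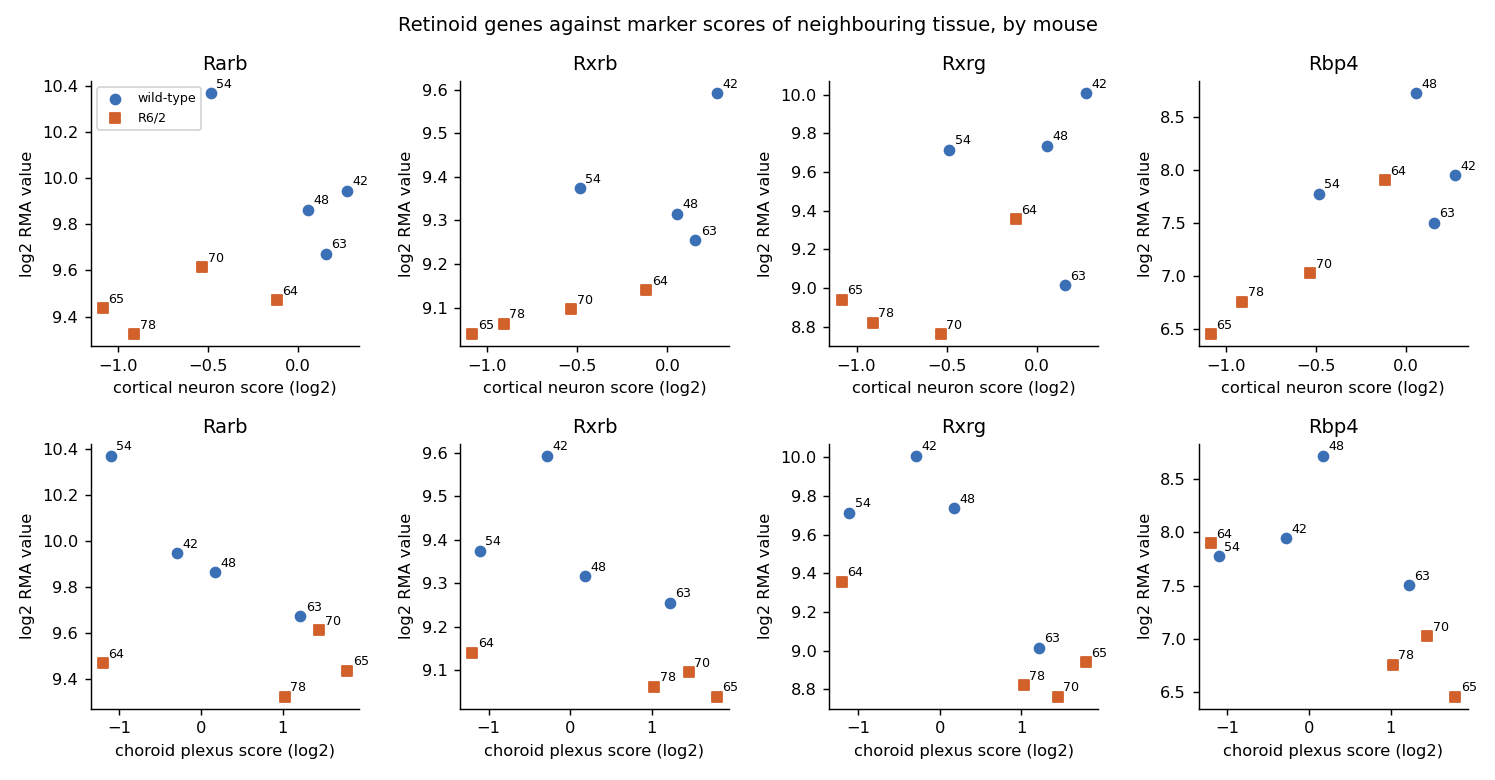
Log2 RMA values of Rarb, Rxrb, Rxrg and Rbp4 in each mouse against the cortical neuron score (upper row) and the choroid plexus score (lower row), with mouse numbers. In R6/2 mice Rbp4 runs from 6.45 to 7.90 as the cortical score runs from -1.08 to -0.12, and R6/2 mouse 64 and wild-type mouse 54 have the lowest choroid plexus scores.

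Aldh1a1, a retinaldehyde dehydrogenase that in the brain is known from midbrain dopamine neurons, stood at 8.78, 8.86, 8.05 and 8.71 in wild-type mice 42, 48, 54 and 63. It stood at 8.73, 8.32, 7.52 and 8.29 in R6/2 mice 64, 65, 70 and 78. The spread within each genotype was as wide as the difference between them, -0.39 ± 0.25 (SE, limma adjusted p = 0.381, 95% interval -0.94 to 0.17). Adjusted for the cortical score the value was -0.031 (limma adjusted p = 0.981). Of 6 dopamine neuron markers none passed in limma. An unadjusted p under 0.05, whose share over all probe sets was not counted, was reached by 4 of the 6, and these 4 were split in direction. The log2 differences were -0.39 for Th and -1.56 for Nr4a2, but 0.61 for Ddc and 0.56 for Slc18a2. The means of 4 of the 6 markers, Th and Slc18a2 among them, lay at or under the mark of 5.37. At such signals a change of the transcript could not be measured well. Th, the tyrosine hydroxylase gene, spanned 4.78 to 5.37 in the wild-type and 4.39 to 4.88 in the R6/2 mice. Aldh1a7, a closely related gene whose transcript could share probes, was dim at 3.79 ± 0.038 and 3.70 ± 0.14 (SD, n = 4 each). Whether the Aldh1a1 probes separate the 2 genes was not checked, because the probe sequences were not used here.

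Crabp1, which binds retinoic acid in the cytoplasm, lay between 4.95 and 5.60 in wild-type and between 5.25 and 5.51 in R6/2 mice. Its log2 difference was 0.011 ± 0.14 (SE, limma adjusted p = 0.974), with a 95% interval from -0.30 to 0.32. Cyp26b1, the main retinoic acid hydroxylase of the adult brain, lay between 4.50 and 4.68 and between 4.35 and 4.69, under the mark of 5.37 on every array. It differed by -0.15 ± 0.091 (SE, limma adjusted p = 0.364), and at such signals a change of the transcript could not be measured well.

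Elsewhere in the pathway, changes were mixed in direction. Lists of 80 other genes in 6 roles were drawn up by knowledge of the pathway, and 70 had a named probe set, of which the brightest was used; the rest were not analysed here. Of the 70, 10 were called lower and 5 higher, where 5.13% of all genes were called lower and 7.29% higher by the brightest probe set. The median log2 difference of the 70 was -0.026, against -0.0034 over all genes.

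In the list for retinoic acid synthesis, 3 of 21 genes rose, 1 fell and 17 did not pass, with a median log2 difference of 0.028. The list also holds enzymes that act in the reverse direction, so these counts give no direction of synthesis. Dhrs3, which turns retinaldehyde back into retinol and limits retinoic acid, fell from 7.59, 7.02, 6.53 and 6.93 in wild-type mice 42, 48, 54 and 63 to between 6.07 and 6.14 in the R6/2 mice. The log2 difference was -0.93 ± 0.18 (SE, limma adjusted p = 0.0108), and the call held without any 1 array. The retinol dehydrogenase gene Rdh14 rose, from 8.07 to 8.38 in wild-type against 8.56 to 8.83 in R6/2 mice, a difference of 0.50 ± 0.092 (limma adjusted p = 0.00893). Other probe sets of Rdh14 did not (-0.016 and 0.046, limma adjusted p = 0.954 and 0.876). Adh5, an alcohol dehydrogenase that mainly clears formaldehyde, rose from 9.57 ± 0.043 to 9.94 ± 0.086 (SD, n = 4 each, limma adjusted p = 0.0103). Its dimmer probe set 1443380_at did not pass (log2 difference 0.022, limma adjusted p = 0.909). The third gene that rose was Rdh12, a photoreceptor retinaldehyde reductase, named after its values were seen. It was dim, under the mark of 5.37 on all arrays, at 4.16 ± 0.090 and 4.62 ± 0.16 (SD, n = 4 each, limma adjusted p = 0.0135). Its probe set 1431010_a_at, dimmer still, did not pass (log2 difference 0.15, limma adjusted p = 0.342). These 4 calls held without any 1 array. With the cortical score as a covariate only Rdh14 passed (log2 difference 0.66, limma adjusted p = 0.0251). Adh5 was then at 0.44 (limma adjusted p = 0.0516) and Rdh12 at 0.42 (0.136), close to or above their values without it, and Dhrs3 at -0.62 (0.178).

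In vitamin A transport and cellular binding, 1 of 9 genes fell and none rose (median 0.073). That gene was Crabp2, which delivers retinoic acid to RAR, from 5.48 ± 0.12 to 4.90 ± 0.27 (SD, n = 4 each, limma adjusted p = 0.0202). Its values were near the mark of 5.37, with all R6/2 mice (4.59 to 5.15) and wild-type mouse 54 under it. The groups did not overlap, and the call was lost without wild-type mouse 48 or R6/2 mouse 78 (limma adjusted p at most 0.0594) and after adjustment for the cortical score (log2 difference -0.26, limma adjusted p = 0.293). Crabp2 is also one of 12 meningeal markers, whose summed linear signal spanned 585 to 1541 in the wild-type and 630 to 1594 in the R6/2 mice. Igf2, the brightest of them at 7.76 to 10.08 in the wild-type, weighs most in this sum. The means of 8 of the 12 lay at or under the mark. Their score spanned -0.20 to 0.18 in wild-type and -0.11 to 0.24 in R6/2 mice, with a median log2 difference of 0.19. Whether meningeal tissue bears on the Crabp2 level was not tested. Ttr, which encodes transthyretin and is made in the choroid plexus, spanned 12.10 to 14.15 in the wild-type and 12.26 to 14.16 in the R6/2 mice, with a difference of 0.26 ± 0.50 (SE, limma adjusted p = 0.806). Neither of the 2 measured genes of retinoic acid clearance passed. Cyp2s1, the brighter of these, was at 6.38 ± 0.20 and 6.13 ± 0.37 (SD, n = 4 each, limma adjusted p = 0.409), and Cyp26a1, whose promoter window carries the repeat shown above, was at 4.87 ± 0.21 and 4.90 ± 0.27 (limma adjusted p = 0.935), under the mark of 5.37 on all arrays, and is named for that repeat.

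Of 12 other retinoid receptors and partners of RXR, 1 fell and none rose (median -0.11). Nr4a1, an activity-induced orphan receptor that can pair with RXR, went from 9.86 ± 0.26 to 9.21 ± 0.35 (SD, n = 4 each, limma adjusted p = 0.0492) with overlapping groups. This call was lost without any 1 of 7 arrays (limma adjusted p up to 0.113), being kept only without R6/2 mouse 64 (0.0235), and adjusted for the cortical score the difference was -0.26 (limma adjusted p = 0.566). Of 12 corepressors and coactivators 2 rose and none fell (median 0.058). The acetyltransferase gene Ep300, a coactivator of nuclear receptors, rose by 0.47 ± 0.11 (limma adjusted p = 0.0269), and its relative Crebbp by 0.29 ± 0.076 (limma adjusted p = 0.0403). Crebbp also rose by 2 of its 3 other probe sets (0.36 and 0.40, limma adjusted p = 0.0261 and 0.00576). Without 1 array the call of Ep300 was kept without wild-type mouse 42 or R6/2 mouse 64 (adjusted p down to 0.00554) and lost in the other 6 fits (up to 0.0757), and that of Crebbp was kept without R6/2 mouse 64 (0.0422) and lost in the other 7 (up to 0.108). With the choroid plexus score as a covariate none of the corepressors and coactivators was called, nor was Nr4a1, although the differences moved little: Ep300 was at 0.46 (limma adjusted p = 0.0541), Crebbp at 0.26 (0.0836) and Nr4a1 at -0.60 (0.0963).

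Of 18 genes known to respond to retinoic acid, 9 fell, none rose and 9 did not pass, with a median log2 difference of -0.39. Penk, the enkephalin precursor, fell from 12.51 ± 0.16 to 11.22 ± 0.065. The dopamine receptor genes Drd2 and Drd1 fell from 10.19 ± 0.20 to 9.22 ± 0.12 and from 11.65 ± 0.17 to 10.86 ± 0.044 (SD, n = 4 each, limma adjusted p at most 0.00108 for all 3), and these 3 calls held without any 1 array and with either score as a covariate. The list overlaps the medium spiny neuron markers: 5 of its 18 genes are in both, all 5 fell, and their median was -0.79. Of the other 13 genes 4 fell, and the median of the 13 was -0.14. The 4 were Dhrs3, Crabp2, and Egr1 and Nrgn, the last pair named after their values were seen. The Nrgn call was lost in 5 of 8 fits without 1 array. With the cortical score as a covariate neither Egr1 nor Nrgn passed (limma adjusted p = 0.178 and 0.424). The list was chosen with earlier results of these data known, so its counts do not test a response to retinoic acid. Medium spiny neuron scores were -1.0 to -0.95 in R6/2 against -0.23 to 0.12 in wild-type mice, and their part in the fall of the listed genes was not tested.

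**Figure D4:**
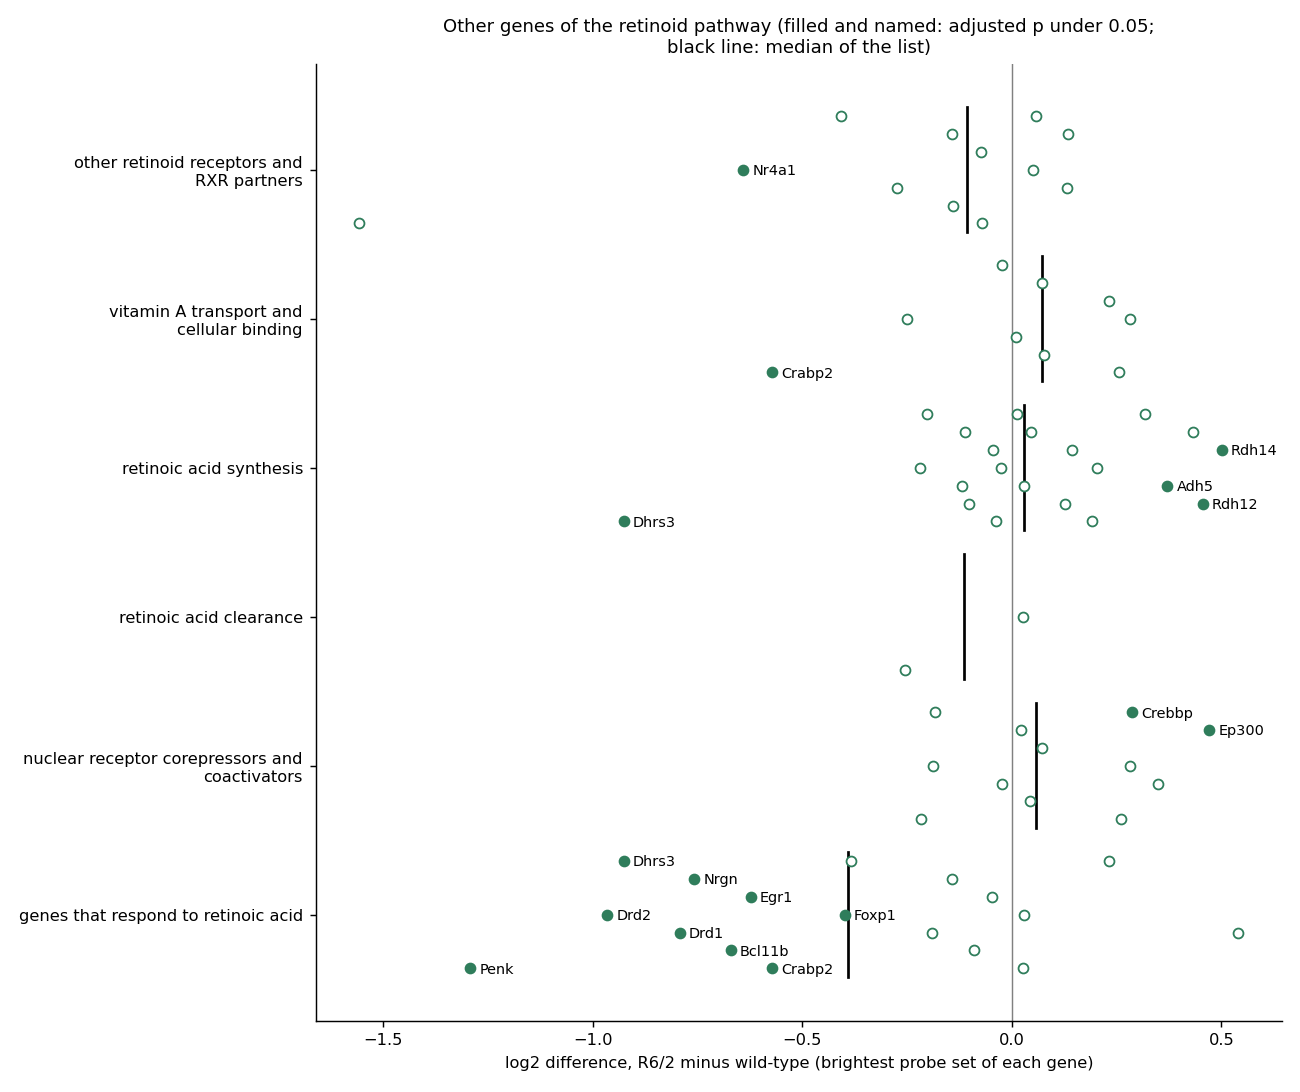
Log2 difference, R6/2 minus wild-type, of the brightest probe set of each of 70 other genes in 6 lists, with the median of each list as a black line; filled, named points passed an adjusted p of 0.05, and Dhrs3, Crabp2 and Cyp26a1 are among genes that stand in more than 1 list. The list of genes that respond to retinoic acid has its median at -0.39, and the other medians lie between -0.11 and 0.073.

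As a description of which transcripts varied like the called receptors over the 8 arrays, the 3 genes with the highest Pearson correlation to Rarb were Ppp1r7, a regulatory subunit of protein phosphatase 1 (0.964), the secreted ligand gene Wnt2 (0.962) and Plcxd1 (0.960). With group means removed the values were 0.907, 0.908 and 0.889. For Rxrb they were Taf10, a subunit of general transcription factor TFIID (0.993), the ubiquitin ligase gene Peli2 (0.988) and the WNT inhibitor gene Apcdd1 (0.987), at 0.975, 0.958 and 0.969 with group means removed. The points share arrays and genotype, and these genes were picked as the highest correlations on the array.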

How the data were processed

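Biotin-labelled target from total RNA of 8 striata was read on 1 Affymetrix array for each mouse, per the labels' protocols. The authors deposited 1 log2 value per probe set and array, and the submitters' processing notes name RMA and affy, without versions. RMA corrects background, normalizes a set of arrays jointly and summarises probes; that set is not given in the sources. Of 5 wild-type mice in the design text, 1 was not analysed here.

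Of 45101 probe sets, 64 controls were left out. Gene names came from the platform annotation, where 34945 probe sets had 1 symbol, 932 several and 9160 no entry; those with several or none are unnamed here, and all 9 members were matched to RefSeq by Entrez ID. Genotypes were compared with limma 3.58.1 in R 4.3.3 (lmFit and eBayes) over 45037 probe sets with Benjamini-Hochberg adjustment, called at 0.05; it was tested on simulated data. Errors of log2 differences are moderated SEs. Within-array differences were tested by exact permutation in scipy 1.17.1, added after values were seen. The 9 members and all lists were chosen with earlier results of these data known.

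Every member probe set is described. Of each pathway list up to 3 called genes with the smallest adjusted p are named, or the brightest where none was called; 3 genes most correlated with each called member (1 symbol, mean above the median probe set) are named, and any other gene is marked as chosen later. Alternatives were quantile normalization, median centring, leaving out the dimmest 40% or the _s_at and _x_at probe sets, 1 probe set or the mean per gene, trended robust moderation, array weights, no moderation, marker scores as covariates, and leaving out each array. Python 3.11.15 with matplotlib 3.10.9 drew the figures.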

Additional observations from a re-analysis of the deposited data

Results flagged for a closer look

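In 1 of the 22 groups of 4 mice examined, wild-type mouse 42 stood apart from its group: its value of Rxra probe set 1425762_a_at was 5.38, while the other wild-type mice lay between 5.79 and 5.85. Chance alone sets apart a sample in about 1 of 20 such groups. Without this mouse the log2 difference of that probe set was -0.11 (limma adjusted p = 0.448), against 0.0033 with it.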

How the results depend on the processing

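Rarb, Rxrb, Rxrg, Rbp4, Aldh1a1, Rara and Cyp26b1 were lower under each of 19 alternatives, but the calls of Rarb and Rxrb were kept in 9 and 8 of the 19. With the cortical score as a covariate, Rarb was at -0.64 and Rxrb at -0.23, 0 members were called lower, the pathway counts were 1 higher and 3 lower, and 600 and 583 probe sets were called higher and lower in all, against 2497 and 2069. Rxra turned to -0.0051 (1454773_at), -0.045 (1425762_a_at) and -0.14 (1430497_at), and Crabp1 to -0.13. With the choroid plexus score, Rarb was at -0.43, Rxrb at -0.27, 0 members were called lower and 3 pathway genes higher. With no moderation, Rarb at -0.50 and Rxrb at -0.30 lost their calls, 0 members were lower, 2 pathway genes higher and 5 lower, and 988 and 873 probe sets were called. Median centring left Rxrb at -0.29 uncalled and 1 member lower. Array weights called Rxrg at -0.68 and 9 pathway genes higher, and turned Rxra 1425762_a_at to -0.055 and Crabp1 to -0.0020. Quantile normalization turned Rxra 1425762_a_at to -0.00079. Every probe set of the listed genes gave 9 higher and 22 lower. With fewer features tested, 1 probe set per gene gave 1654 and 1127 calls, and gene means 1587 and 1088.

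Without 1 array, members called lower ran from 0 to 3, pathway genes from 3 to 5 higher and 7 to 10 lower, and all probe sets from 1287 to 2372 higher and 1358 to 2084 lower. The differences ran from -0.60 to -0.37 for Rarb, -0.34 to -0.23 for Rxrb, -0.85 to -0.52 for Rxrg, -1.24 to -0.71 for Rbp4, -0.57 to -0.15 for Aldh1a1, -0.18 to -0.091 for Rara, -0.22 to -0.11 for Cyp26b1 and -0.13 to 0.090 for Crabp1. For Rxra they ran from 0.0082 to 0.095 (1454773_at), -0.11 to 0.054 (1425762_a_at) and -0.023 to 0.15 (1430497_at). Apart from fewer features or arrays, the cause of these changes was not tested. No paired analysis was possible because the genotypes share no mouse numbers. Signal near background limits Rara, Cyp26b1, Crabp1 and Rxra 1430497_at, and in the pathway lists Crabp2, Cyp26a1 and Rdh12, among others.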

Other observations

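Some genes of the pathway lists gave different results by probe set, in both directions, and these genes were chosen after their values were seen. The brightest probe set of Thra, the thyroid hormone receptor that pairs with RXR, differed by 0.052 ± 0.062 (log2, SE, limma adjusted p = 0.664). A pair of dimmer Thra probe sets fell, by 0.50 ± 0.097 (1426997_at, limma adjusted p = 0.0111) and by 0.35 ± 0.069 (1443952_at, limma adjusted p = 0.0124). Fabp5, which carries retinoic acid to another nuclear receptor, differed by -0.25 ± 0.076 by its brightest probe set (limma adjusted p = 0.0659), and fell by 0.31 ± 0.073 by 1416022_at (limma adjusted p = 0.0243). Meis2, a homeobox gene of striatal neurons induced by retinoic acid, differed by -0.14 ± 0.096 (limma adjusted p = 0.402) and fell by 0.49 ± 0.13 by 1440091_at (limma adjusted p = 0.0433). Tbl1xr1 differed by 0.044 ± 0.077 (limma adjusted p = 0.778), and by -0.30 ± 0.077 by 1455109_at (limma adjusted p = 0.0345). Ncoa2 differed by 0.35 ± 0.11 (limma adjusted p = 0.0752) and rose by 0.56 ± 0.15 by 1435234_at (limma adjusted p = 0.0403). Dhrs4 differed by 0.19 ± 0.080 (limma adjusted p = 0.165) and rose by 0.40 ± 0.097 by 1419382_a_at (limma adjusted p = 0.0290).

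Nr4a2, an orphan receptor that pairs with RXR, differed by -1.56 ± 0.65 and varied widely among mice, 5.71 to 8.81 in the wild-type and 5.07 to 7.51 in the R6/2 group (limma adjusted p = 0.168).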
